A study of Mus musculus with 6 samples.

Results

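Mitochondrially encoded transcripts are the RNAs made from the small circular genome inside mitochondria. They were taken as every gene of the deposited table whose symbol begins with mt-, which gave 37 of 24602 genes, all of them on chromosome MT. They comprise 13 mRNAs, 2 rRNAs and 22 tRNAs. RNA was measured in the left ventricle, the main pumping chamber, of wild-type mice 5 weeks after transverse aortic coarctation (TAC; 3 libraries) or a sham operation (3 libraries). TAC narrows the aortic arch, so that the ventricle ejects blood against a raised pressure. All 6 libraries came from wild-type animals, and the labels used here state neither age nor sex. Whether the libraries came from different mice is not stated either, and the p-values then cover only the spread among these 6 libraries, which could be technical.

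The mitochondrial genome is transcribed from both strands as long precursors, and tRNAs set between most of the other genes mark where the precursors are cut. The mRNAs encode core subunits of respiratory complexes I, III and IV and of the ATP synthase (complex V). The rRNAs form the core of the mitochondrial ribosome and the tRNAs decode its messages. The remaining subunits, and all proteins that copy, transcribe and translate this genome, are encoded in the nucleus. Heart muscle is dense in mitochondria, and these transcripts are usually among its most abundant RNAs.

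In TAC libraries the mitochondrial genes as a whole took a larger share of the counts, and mt-Co2, mt-Atp8, mt-Atp6 and 4 plus-strand tRNAs rose. The 4 tRNAs that rose, 2 that did not pass, and the reading-frame overlaps that tie pairs of mRNAs together are printed here for comparison with the results below. Sequences are the sense strand, 5′ to 3′, from the GENCODE M21 transcripts of build GRCm38, and the capitals in the tRNAs mark the anticodon. Of the 2 that did not pass, mt-Ti lies on the plus strand and mt-Te on the minus strand.
mt-Tr (arginine, MT:9808-9875, plus strand): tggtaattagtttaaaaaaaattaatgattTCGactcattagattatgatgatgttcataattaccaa
mt-Tk (lysine, MT:7700-7764, plus strand): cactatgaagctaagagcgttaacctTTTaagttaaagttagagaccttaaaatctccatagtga
mt-Td (aspartate, MT:6942-7011, plus strand): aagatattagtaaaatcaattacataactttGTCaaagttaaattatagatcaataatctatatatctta
mt-Tl1 (leucine, MT:2676-2750, plus strand): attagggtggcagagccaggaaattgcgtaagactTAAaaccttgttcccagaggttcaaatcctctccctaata
mt-Ti (isoleucine, MT:3706-3774, plus strand): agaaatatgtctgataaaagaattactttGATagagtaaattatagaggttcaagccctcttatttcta
mt-Te (glutamate, MT:14071-14139, minus strand): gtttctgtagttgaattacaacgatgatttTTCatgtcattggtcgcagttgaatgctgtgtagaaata
In the overlaps the capitals mark the start codon of the downstream reading frame. The first is shared by mt-Atp8 and mt-Atp6 over 43 bases and the second by mt-Nd4l and mt-Nd4 over 7 bases, so fragments there belong to both genes.
mt-Atp8 and mt-Atp6 overlap (MT:7927-7969, plus strand): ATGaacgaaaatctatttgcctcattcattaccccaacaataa
mt-Nd4l and mt-Nd4 overlap (MT:10167-10173, plus strand): ATGctaa

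The libraries held 64023153 to 69992502 estimated counts each. The RNA was selected with oligo(dT), which binds poly(A) tails, and had RNA integrity numbers above 7.0 per the labels. The library chemistry marked the strand, but the strand setting of the counting was not given in the sources used here. Minus-strand genes, which lie opposite transcribed plus-strand sequence, are therefore uncertain. Cardiomyocyte markers were present as the tissue label requires, with 10 of 10 tested and none called. Their summed level was 67745 to 101108 CPM in TAC and 94472 to 106936 in sham libraries, lowest in TAC library 3. CPM are counts scaled to the library size as adjusted by edgeR's TMM method. Among markers of other cells, 2 of 8 fibroblast, 1 of 8 endothelial, 2 of 8 pericyte and smooth muscle and 1 of 5 tested atrial genes rose, and none of the 5 tested leukocyte genes passed, by the edgeR test below that called 4.71% of all tested genes higher. The atrial gene was Nppa, and the other 4 had log2 fold changes below 0 that did not pass, with a list median of -1.04. In bulk tissue, fewer cells of a type and less RNA per cell cannot be told apart.

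Mitochondrial genes took 29.2%, 27.2% and 22.6% of all counts in TAC libraries 1 to 3, against 19.2%, 14.8% and 16.7% in sham libraries 1 to 3. Every TAC library lay above every sham library. The means were 26.3 ± 3.38% in TAC and 16.9 ± 2.23% in sham (SD, n = 3 each), with an exact 2-sided permutation p of 0.1, the smallest that 3 against 3 libraries can give. On the length-adjusted scale of FPKM (fragments per kilobase of transcript, scaled by the library total), the share was 44.5 ± 2.37% in TAC and 33.6 ± 3.34% in sham (SD, n = 3 each), again without overlap. Blood markers had summed levels of 1822, 1883 and 809 CPM in TAC libraries against 663, 375 and 1207 in sham libraries, which overlap. None of the 4 blood genes passed the test, and their part in the mitochondrial share was not tested.

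**Figure D1:**
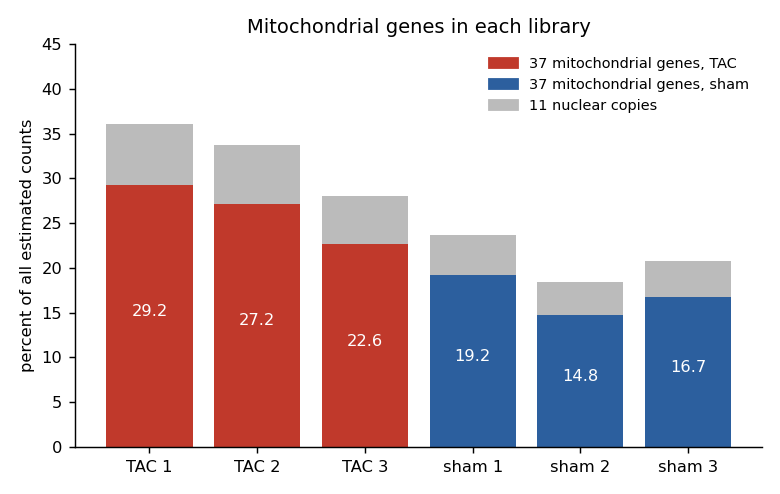
Percent of all estimated counts (vertical axis) in each TAC and sham library that fell on the 37 mitochondrial genes (coloured, value printed) and on 11 nuclear copies of mitochondrial sequence (grey, stacked on top). The 3 TAC libraries hold 22.6% to 29.2% and the 3 sham libraries 14.8% to 19.2% on the mitochondrial genes.

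By class, the make-up of the mitochondrial total overlapped between the groups. The mRNAs held 97.3 ± 0.511% of mitochondrial counts in TAC and 96.7 ± 0.676% in sham. The rRNAs held 2.08 ± 0.499% in TAC and 2.51 ± 0.739% in sham, and the tRNAs 0.663 ± 0.0287% in TAC and 0.774 ± 0.0940% in sham (SD, n = 3 each). Within the mRNA counts, complex I genes held 32.2 ± 0.928% in TAC and 32.2 ± 2.40% in sham, and complex IV genes 54.0 ± 1.47% in TAC and 55.9 ± 4.11% in sham. The complex III gene held 7.66 ± 0.599% in TAC and 6.75 ± 1.20% in sham, and complex V genes 6.13 ± 0.303% in TAC and 5.17 ± 0.702% in sham. None of these 4 shares separated the groups, and of the 13 mRNAs none had a share among the mRNAs that did. Counts on nuclear copies, described below, were left out of these shares, and the genes differ in how much of them is copied.

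All 37 genes passed the filter of a mean of at least 1 FPKM, as did 8795 genes in all. By edgeR's quasi-likelihood test with Benjamini-Hochberg adjustment over those 8795 genes, 7 of the 37 were higher in TAC at an adjusted p under 0.05, beside 4.71% of all tested genes. None was lower, beside 2.29% of all tested genes, and 30 did not pass, although 25 of the 37 had an unadjusted p under 0.05. The log2 fold change, TAC over sham, was above 0 for 37 of 37 genes and for 49.2% of all tested genes, whose median was -0.01. The median was 0.93 for the mRNAs, 0.47 for the rRNAs and 0.75 for the tRNAs. In FPKM, 19 of 37 genes had every TAC library above every sham library, beside 11.6% of all tested genes, and none had every TAC library below, beside 25.4%.

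The number of calls turned on single libraries. It was 0 without TAC library 1 (beside 0.374% of all tested genes), 2 without TAC library 2 (1.11%) and 29 without TAC library 3 (9.29%). It was 10 without sham library 1 (3.47%), 0 without sham library 2 (0.102%) and 3 without sham library 3 (0.35%). The log2 fold changes stayed above 0 for all 37 genes in each of these 6 fits. DESeq2 called 21 of the 37 higher (11.7% of all tested genes), library totals without TMM 4 (1.79%) and no filter 4 (0.684%). On log2 FPKM, limma called 5 with a pseudocount of 1 (1.98%) and 5 with 0.1 (1.93%).

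**Figure D2:**
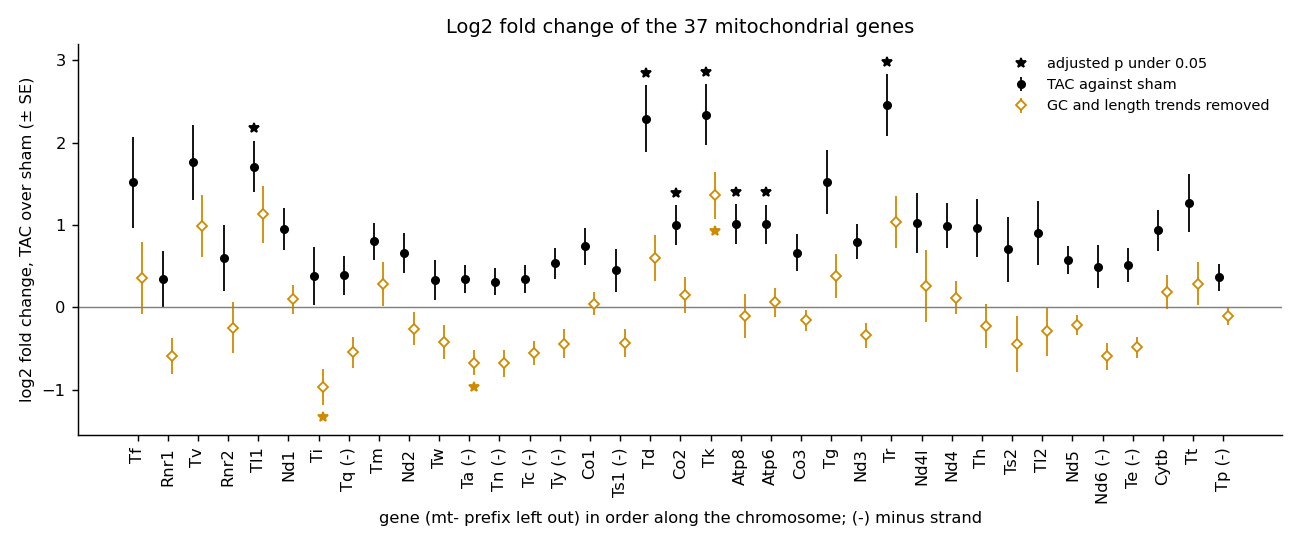
Log2 fold change, TAC over sham, with its standard error (vertical axis) for the 37 mitochondrial genes in their order along the chromosome (horizontal axis), from the edgeR fit (black circles) and with library-wise trends in GC content and transcript length removed (open orange diamonds). Stars mark an adjusted p under 0.05. All black circles lie above 0 and mt-Td, mt-Tk and mt-Tr are the highest, while the diamonds lie on both sides of 0.

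Complex I takes electrons from NADH and pumps protons, and 7 of its core membrane subunits are mitochondrially encoded. None of these 7 mRNAs passed the test. mt-Nd1 had 22897, 23991 and 16891 FPKM in TAC libraries, against 15364, 10298 and 11102 FPKM in sham libraries. The groups did not overlap, and the log2 fold change was 0.95 ± 0.25 (SE, edgeR adjusted p = 0.0599). mt-Nd4 had 14484, 13424 and 11871 FPKM in TAC libraries, against 10396, 5692 and 6117 FPKM in sham libraries. It too was apart between the groups, with a log2 fold change of 0.99 ± 0.27 (SE, edgeR adjusted p = 0.0653). mt-Nd3 and mt-Nd5 were also apart, with log2 fold changes of 0.80 (edgeR adjusted p = 0.0570) and 0.58 (edgeR adjusted p = 0.0749).

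The other 3 complex I mRNAs overlapped between the groups. mt-Nd4l had 5544, 4011 and 6792 FPKM in TAC libraries, against 4812, 1929 and 2031 FPKM in sham libraries. Sham library 1 lay above TAC library 2 there, and the log2 fold change of 1.02 ± 0.37 (SE) had an edgeR adjusted p of 0.114. mt-Nd2 had 14869 to 18329 FPKM in TAC and 9265 to 15331 FPKM in sham libraries, with an edgeR adjusted p of 0.117. mt-Nd6 is the only mRNA encoded on the minus strand, and in human cells it is known to lack a poly(A) tail. It had 14255, 14845 and 8626 FPKM in TAC libraries, against 8620, 10211 and 11314 FPKM in sham libraries. TAC library 3 was lower than sham libraries 2 and 3, and the log2 fold change of 0.49 ± 0.26 (SE, edgeR adjusted p = 0.261) was the lowest of the 13 mRNAs. Relative to mt-Nd5, which overlaps it by 14 bases on the opposite strand, mt-Nd6 had 1.82 ± 0.472 times the FPKM in TAC and 1.97 ± 0.284 times in sham (SD, n = 3 each).

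The mRNA for cytochrome b, the electron-carrying core of complex III, is mt-Cytb. It had 17302, 15891 and 15210 FPKM in TAC libraries, against 12632, 7309 and 8111 FPKM in sham libraries. The groups did not overlap, and the log2 fold change was 0.93 ± 0.25 (SE, edgeR adjusted p = 0.0601).

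Complex IV, cytochrome c oxidase, passes electrons to oxygen, and its catalytic core is made of the products of mt-Co1, mt-Co2 and mt-Co3. mt-Co1 was the most abundant gene of the whole table by mean FPKM and mt-Co3 the next. mt-Co1 had 73823, 61622 and 53517 FPKM in TAC libraries, against 43563, 37031 and 45512 FPKM in sham libraries. The groups were apart, but the log2 fold change of 0.74 ± 0.22 (SE) did not pass (edgeR adjusted p = 0.0773). mt-Co2 had 18349, 19048 and 15439 FPKM in TAC libraries, against 12948, 8307 and 8160 FPKM in sham libraries. It rose by 0.998 ± 0.25 on the log2 scale (SE, edgeR adjusted p = 0.0483), and sham library 1 was well above the other sham libraries. mt-Co3 had 30904, 30734 and 21490 FPKM in TAC libraries, against 19537, 18401 and 20820 FPKM in sham libraries, with a log2 fold change of 0.66 ± 0.22 (SE, edgeR adjusted p = 0.102). TAC library 3 lay just above the highest sham library for mt-Co3.

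Complex V makes ATP from the proton gradient. mt-Atp6 encodes the subunit that lines its proton path, and mt-Atp8 a small membrane subunit. mt-Atp6 had 18159, 18136 and 14515 FPKM in TAC libraries, against 11952, 7519 and 8652 FPKM in sham libraries. It rose by 1.01 ± 0.24 on the log2 scale (SE, edgeR adjusted p = 0.0458). mt-Atp8 had 16524, 14542 and 16922 FPKM in TAC libraries, against 12196, 6961 and 7122 FPKM in sham libraries. It rose by 1.01 ± 0.24 on the log2 scale (SE, edgeR adjusted p = 0.0467). The groups of both genes were apart, with sham library 1 the highest sham library each time. Both genes sit on 1 bicistronic transcript, and the FPKM of mt-Atp8 over that of mt-Atp6 was 0.959 ± 0.187 in TAC and 0.923 ± 0.0986 in sham (SD, n = 3 each), which overlap. mt-Nd4l over mt-Nd4, the other bicistronic pair, was 0.418 ± 0.140 in TAC and 0.378 ± 0.0736 in sham (SD, n = 3 each), which overlap too. Nuclear copies, described below, cover 99.6% of mt-Atp6, 99.0% of mt-Nd4l and 63.6% of mt-Nd4. None was assigned to mt-Atp8, but the copy of mt-Atp6 takes in the 43 bases that the 2 genes share. Values of the copies were left out of both ratios. How fragments were divided between genes and copies was not given, so the size of these ratios is uncertain.

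**Figure D3:**
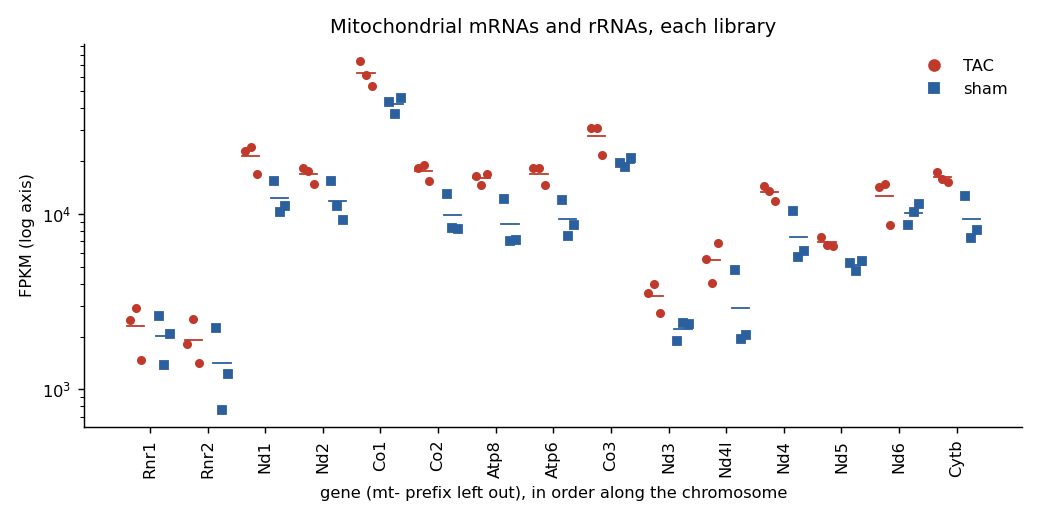
FPKM on a log axis (vertical) of the 13 mitochondrial mRNAs and 2 rRNAs in order along the chromosome (horizontal); each point is 1 library, TAC (red circles) left of sham (blue squares), and short lines are group means. mt-Co1 is the highest gene in both groups, and the groups of both rRNAs and of mt-Nd2, mt-Nd4l and mt-Nd6 overlap.

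The rRNAs stood lower than all mRNAs in mean FPKM, and oligo(dT) selection does not aim at them. mt-Rnr1, the small-subunit rRNA, had 2485, 2925 and 1475 FPKM in TAC libraries, against 2634, 1375 and 2062 FPKM in sham libraries. mt-Rnr2, the large-subunit rRNA, had 1818, 2528 and 1416 FPKM in TAC libraries, against 2238, 767 and 1231 FPKM in sham libraries. Both overlapped widely between the groups, with log2 fold changes of 0.35 ± 0.34 (SE, edgeR adjusted p = 0.550) and 0.60 ± 0.40 (SE, edgeR adjusted p = 0.377).

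The tRNA genes are 59 to 75 bases long, shorter than the library inserts of 300 ± 50 bases that the labels give, so an insert of that size on a tRNA also holds neighbouring sequence. Read as such, 4 of 22 tRNAs rose and 18 did not pass. All 4 that rose were on the plus strand. The median log2 fold change was 1.39 for the 14 plus-strand tRNAs and 0.38 for the 8 minus-strand tRNAs, of which none exceeded 0.54.

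mt-Tr carries arginine, and its printed sequence holds 22.1% G and C. It had 299, 219 and 297 FPKM in TAC libraries, against 53.9, 27.0 and 82.0 FPKM in sham libraries. It rose by 2.46 ± 0.38 on the log2 scale (SE, edgeR adjusted p = 0.0229), with a wide gap between the groups. mt-Tk carries lysine and had 73.4, 56.7 and 54.9 FPKM in TAC libraries, against 9.65, 9.53 and 21.2 FPKM in sham libraries. It rose by 2.34 ± 0.37 on the log2 scale (SE, edgeR adjusted p = 0.0229). For both tRNAs sham library 3 was the highest sham library and still far below TAC.

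mt-Td carries aspartate and is the most AT-rich gene of the 37, with 17.1% G and C. It had 157, 175 and 127 FPKM in TAC libraries, against 29.3, 18.1 and 56.4 FPKM in sham libraries. It rose by 2.29 ± 0.41 on the log2 scale (SE, edgeR adjusted p = 0.0257). mt-Tl1 carries leucine, lies directly between mt-Rnr2 and mt-Nd1, and is not AT-rich for a tRNA of this genome, with 44.0% G and C. It had 2665, 2061 and 2021 FPKM in TAC libraries, against 1085, 458 and 739 FPKM in sham libraries. It rose by 1.71 ± 0.31 on the log2 scale (SE, edgeR adjusted p = 0.0273), and the groups were well apart, with sham library 1 the highest of the sham libraries.

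Among the tRNAs that did not pass, mt-Tv (valine) and mt-Tg (glycine) were apart between the groups, with log2 fold changes of 1.76 ± 0.45 (SE, edgeR adjusted p = 0.0550) and 1.52 ± 0.39 (SE, edgeR adjusted p = 0.0539). mt-Ti, the isoleucine tRNA, had 825, 932 and 379 FPKM in TAC libraries, against 603, 503 and 744 FPKM in sham libraries. Its groups overlapped, with TAC library 3 the lowest of all 6 libraries. mt-Te, the glutamate tRNA next to mt-Nd6, had 3974, 3696 and 2633 FPKM in TAC libraries, against 2671, 2547 and 2843 FPKM in sham libraries. It overlapped too, and its log2 fold change was 0.52 ± 0.21 (SE, edgeR adjusted p = 0.147). The most abundant tRNA was mt-Ts1, a serine tRNA on the minus strand opposite the end of mt-Co1, with 9471, 9562 and 5532 FPKM in TAC libraries, against 6053, 6408 and 7755 FPKM in sham libraries.

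**Figure D4:**
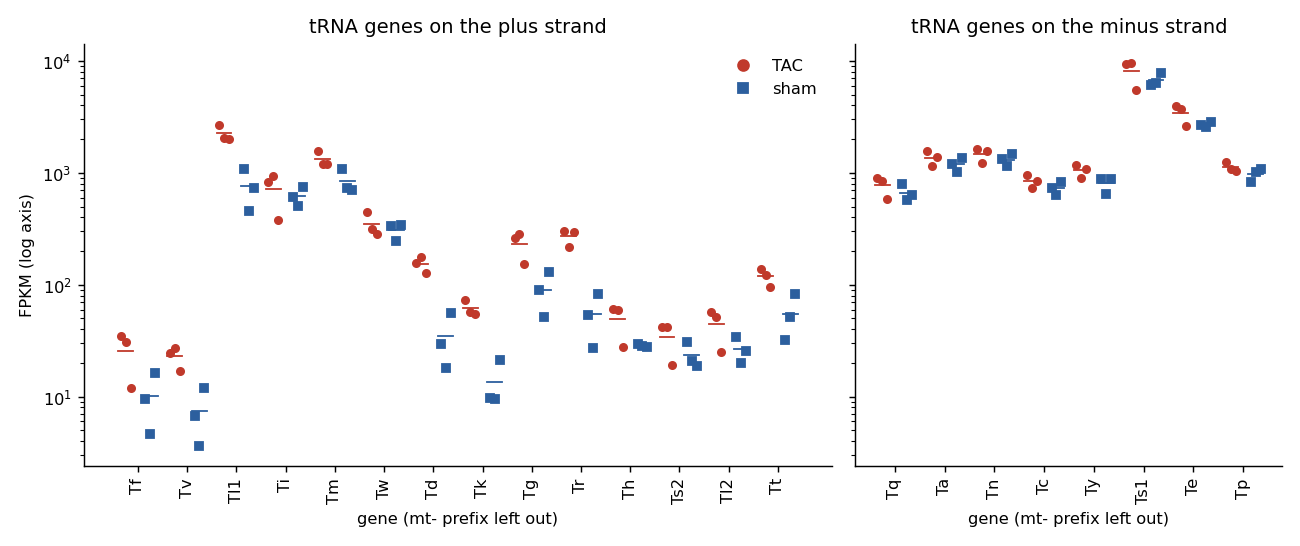
FPKM on a log axis (vertical) of the 22 mitochondrial tRNA genes (horizontal), plus-strand genes in the left panel and minus-strand genes in the right; each point is 1 library, TAC (red circles) left of sham (blue squares), and short lines are group means. The groups of mt-Tr, mt-Tk, mt-Td and mt-Tl1 are far apart, and those of 7 of the 8 minus-strand tRNAs overlap.

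The share of each gene in the mitochondrial counts removes the change in the total. By that measure 6 genes had every TAC library above every sham library, which were mt-Tv, mt-Tl1, mt-Td, mt-Tk, mt-Atp6 and mt-Tr, and they make 16.2% of the 37. The 3 genes with TAC below sham were mt-Tq, mt-Tw and mt-Te, which make 8.11%. Each exact 2-sided permutation p was 0.1, the smallest possible, and 0.41 after Benjamini-Hochberg adjustment over the 37 genes, so no single share passed. mt-Tr made up 73.2, 58.2 and 94.7 ppm of the mitochondrial counts in TAC libraries, against 19.9, 13.1 and 34.9 in sham libraries. mt-Te made up 986, 995 and 852 ppm in TAC libraries, against 997, 1253 and 1227 in sham libraries. These gaps are narrow for mt-Te and wide for mt-Tr. Without sham library 1, the counts were 12 genes above and 11 below, and without TAC library 3 they were 10 above and 8 below. Without TAC library 2, 5 genes were below. A gene apart in all libraries stays apart when 1 is left out, so these counts could not fall below 6 and 3.

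The strands separated in the sums as well. Plus-strand tRNA counts over minus-strand tRNA counts came to 0.327, 0.299 and 0.332 in TAC libraries, against 0.242, 0.158 and 0.182 in sham libraries. The groups did not overlap (exact 2-sided permutation p = 0.1, the smallest possible). mt-Ts1 held 0.224% of mitochondrial counts in TAC and 0.292% in sham, of 0.503% and 0.651% for all 8 minus-strand tRNAs. mt-Tl1 held 0.0677% and 0.0344%, of 0.160% and 0.124% for all 14 plus-strand tRNAs. The ratio thus leans on mt-Ts1 and mt-Tl1, and minus-strand counts are uncertain because the strand setting was not given. Each plus-strand tRNA could also be set against the mean FPKM of the plus-strand mRNAs or rRNAs on either side of it. mt-Tf has no such gene upstream and mt-Tt none downstream, so their other neighbour was used alone. mt-Tr stood at 6.60%, 5.48% and 6.23% of its neighbours mt-Nd3 and mt-Nd4l in TAC libraries, against 1.61%, 1.25% and 3.74% in sham libraries. mt-Tl1 stood at 21.6%, 15.5% and 22.1% of mt-Rnr2 and mt-Nd1 in TAC libraries, against 12.3%, 8.28% and 12.0% in sham libraries. Both ratios, and those of mt-Tf, mt-Tv, mt-Td, mt-Tk and mt-Tg, were higher in every TAC library, that of mt-Tw was lower, and the other 6 plus-strand tRNAs overlapped (exact permutation p = 0.1 for each of the 8 apart, 0.175 adjusted over the 14). Values of nuclear copies, described below, were left out of these ratios. Such copies cover 99.1% of mt-Nd3 and 99.0% of mt-Nd4l. The size of the mt-Tr ratio is therefore uncertain, as is that of other tRNAs with copied neighbours.

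Log2 fold change varied with base composition among nuclear genes. Their median was 0.72 for the 168 tested genes of 35 to 40% GC, of which 33.3% were called higher. It was 0.51 for the 971 genes of 40 to 45% GC, and -0.08 for the 2846 genes of 50 to 55% GC. The mitochondrial mRNAs had a median GC content of 37.1% and a median log2 fold change of 0.93. Across the 13 mRNAs, log2 fold change and GC content had a Pearson r of 0.12 and a Spearman rho of 0.09, and across the 22 tRNAs they were -0.44 and -0.34. These are descriptions over genes that share 6 libraries and a precursor, and genes are not independent replicates.

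**Figure D5:**
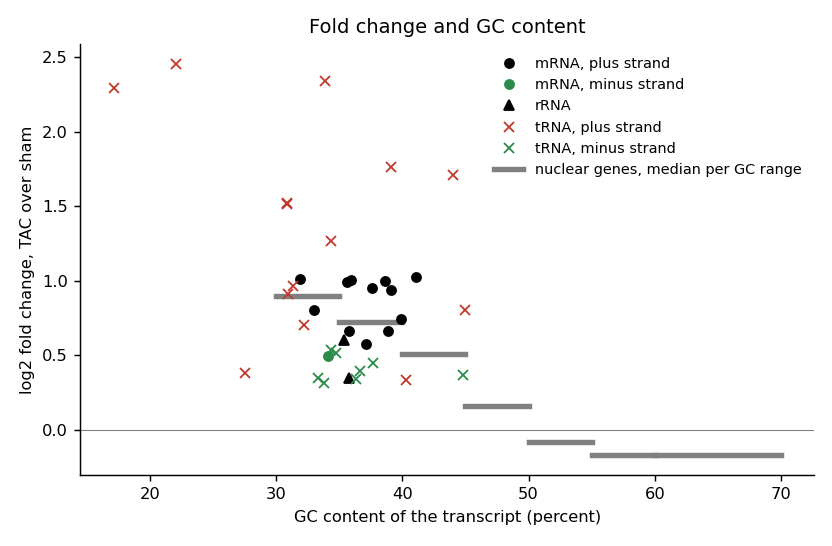
Log2 fold change, TAC over sham (vertical), against the GC content of the transcript in percent (horizontal) for the 37 mitochondrial genes, with symbols for class and colours for strand; grey bars are the medians of nuclear genes in each GC range. Nuclear medians fall with rising GC content, and the mRNAs lie on both sides of the bars of their range. mt-Td, mt-Tr, mt-Tk, mt-Tv and mt-Tl1 lie far above, and the minus-strand genes lie below. The lowest bar is the median of only 6 nuclear genes, none of them as AT-rich as mt-Td or mt-Tr.

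With library-wise trends in GC content and transcript length removed, the median log2 fold change of the mRNAs was 0.05, and 0 of 13 mRNAs passed, against 3 with the trends kept. In that fit mt-Tk was the only one of the 37 called higher (log2 fold change 1.36, edgeR adjusted p = 0.0386), beside 2.75% of all tested genes. mt-Ti (-0.97, edgeR adjusted p = 0.0450) and mt-Ta, the alanine tRNA (-0.67, edgeR adjusted p = 0.0466), were lower, beside 2.48% of all tested genes. The medians of the plus-strand and minus-strand tRNAs were 0.32 and -0.52. Of the 37 log2 fold changes, 16 were above 0 in that fit. With the trends taken from nuclear genes alone, none was called higher (2.75% of all tested genes) and mt-Ta, mt-Tn and mt-Tc were lower (2.56% of all tested genes). In fits chosen after seeing the data, none was called higher with the GC trend removed alone (1.05% of all tested genes), and 8 were with the length trend removed alone (7.66%). Few nuclear genes are as AT-rich or as short as these tRNAs, and no tested one is as AT-rich as mt-Td or mt-Tr. The first fit took its trends from all tested genes, these 37 included, so the members helped to set what was removed from them. In the fit on nuclear genes alone, the trend kept its end value beyond the range of those genes. Whether GC content accounts for the changes was not tested.

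Parts of the mitochondrial genome lie copied in nuclear chromosomes, and their counts cannot be separated fully from those of the originals. The table held 11 such copies with at least 95% identity over at least 80% of their length, 7 of them in a block on chromosome 1 (GRCm38 1:24611535-24616197). They took 6.27 ± 0.786% of all counts in TAC and 4.06 ± 0.380% in sham (SD, n = 3 each). The 7 block copies align within MT:6390 to MT:11042, a range that also holds mt-Ts1, mt-Td, mt-Tk, mt-Tg and mt-Tr. No copy was assigned to a tRNA, and whether the block holds copies of these tRNAs was not examined. The 5 block copies that cover more than 90% of a gene, Gm28661 (of mt-Co2), Gm10925 (mt-Atp6), Gm28437 (mt-Co3), Gm28438 (mt-Nd3) and Gm10222 (mt-Nd4l), had 0.894 to 1.03 times the FPKM of that gene in single libraries. Gm10925 rose by 1.02 ± 0.23 (SE, edgeR adjusted p = 0.0408), close to mt-Atp6 itself. Of the 10 copies tested, 3 were called higher, beside 4.71% of all tested genes. The other 2 were Gm13340 (1.38 ± 0.21, edgeR adjusted p = 0.0229) and Gm13341 (1.01 ± 0.18, edgeR adjusted p = 0.0251), copies of mt-Co1 and mt-Co2 on chromosome 2 with mean FPKM of 29.7 each. With each copy's counts added to its gene, 6 of the 37 were called higher (4.68% of all tested genes). mt-Co2 no longer passed (0.95, edgeR adjusted p = 0.0531), while mt-Atp6 did (1.01, edgeR adjusted p = 0.0431). No copy in the table was assigned to mt-Nd1, mt-Nd6, mt-Cytb or mt-Atp8. Gm10925 does hold the 43 bases of mt-Atp8 that overlap mt-Atp6. Nuclear sequence without a gene record was not searched.

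Of the 200 nuclear genes tested in 11 lists of respiratory subunits and of the machinery that copies, transcribes, processes and translates the mitochondrial genome, 8 rose and 2 fell, beside 4.71% and 2.29% of all tested genes, so neither count is a result about these genes. Median log2 fold changes were -0.06 over 36 complex I subunits, -0.34 over 4 complex II subunits, -0.01 over 9 complex III subunits, 0.00 over 12 complex IV subunits and -0.04 over 17 complex V subunits. The subunits that rose were Ndufa5 and Ndufa1 of complex I, Uqcrb of complex III and Cox7b of complex IV. With the GC and length trends removed Ndufa5 still passed (edgeR adjusted p = 0.0313), and Ndufa1 (0.0752), Uqcrb (0.840) and Cox7b (0.937) did not. Atp5b and Atp5a1, the catalytic-head subunits of complex V, had log2 fold changes of -0.35 (edgeR adjusted p = 0.176) and -0.33 (edgeR adjusted p = 0.186), and Sdhb and Sdhd of complex II -0.25 (edgeR adjusted p = 0.503) and -0.43 (edgeR adjusted p = 0.0668). The number that rose depended on single libraries, with 26 without TAC library 3 (9.29% of all tested genes), 3 without sham library 1 (3.47%) and 0 when any 1 of the other 4 was left out. The number that fell was 7 without TAC library 3 (10.2% of all tested genes) and 0 when any 1 of the other 5 was left out.

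The mean FPKM of the mitochondrial mRNAs of a complex over that of its nuclear subunits does not depend on the library total. For complex V the ratio was 52.1, 48.1 and 51.7 in TAC libraries, against 31.4, 15.9 and 17.1 in sham libraries. The nuclear complex V subunits averaged 326 FPKM in TAC and 434 FPKM in sham libraries. Their summed CPM was lower in every TAC library than in every sham library. Both parts of the ratio thus differed, but 0 of these 17 subunits were called and their median log2 fold change was -0.04. On the FPKM scale, 25.4% of all tested genes were lower in every TAC library. For complex I the ratio was 78.5, 70.3 and 84.3 in TAC libraries, against 57.6, 33.8 and 34.0 in sham libraries. Its nuclear means were 148 FPKM in TAC and 183 FPKM in sham libraries. The summed CPM of the nuclear complex I subunits overlapped, at 7632 to 12081 in TAC and 9982 to 12590 in sham libraries, lowest in TAC library 3. All TAC libraries exceeded all sham libraries, also for complexes III and IV (exact 2-sided permutation p = 0.1 for each of the 4, the smallest possible).

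Among genes for expression of the mitochondrial genome, 2 of 7 tested transcription genes rose, beside 4.71% of all tested genes. Tfb2m, an initiation factor of the mitochondrial RNA polymerase, had 2.63, 2.43 and 4.22 FPKM in TAC libraries, against 1.98, 1.17 and 1.44 FPKM in sham libraries, and rose by 1.14 ± 0.27 on the log2 scale (SE, edgeR adjusted p = 0.0433). Mterf2, of the termination factor family, rose by 1.01 ± 0.25 (SE, edgeR adjusted p = 0.0492). The polymerase Polrmt had a log2 fold change of -0.28 (edgeR adjusted p = 0.220), and Tfam, which packages and activates the genome, 0.65 (edgeR adjusted p = 0.0680). Neither Tfb2m nor Mterf2 passed with the GC and length trends removed (edgeR adjusted p = 0.122 and 0.180).

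None of 7 replication genes and none of 16 RNA processing genes passed, including the helicase Twnk, the polymerase Polg and the RNase P subunit Hsd17b10. Among 78 mitochondrial ribosomal protein genes, Mrpl50 (0.91 ± 0.20, edgeR adjusted p = 0.0358) and Mrpl33 (0.67 ± 0.17, edgeR adjusted p = 0.0498) rose, both encoding large-subunit proteins, and the median was -0.03. Of 9 translation genes, Oxa1l, the insertase that places mitochondrially made proteins in the inner membrane, fell by 0.58 on the log2 scale (edgeR adjusted p = 0.0414). It had 27.3, 27.5 and 27.4 FPKM in TAC libraries, against 39.9, 49.3 and 47.5 FPKM in sham libraries, far apart. Of 6 tested biogenesis regulators, Esrra, a nuclear receptor that drives genes of oxidative metabolism, fell by 0.54 on the log2 scale (edgeR adjusted p = 0.0489). It had 22.7, 22.6 and 24.0 FPKM in TAC libraries, against 32.5, 42.5 and 36.98 FPKM in sham libraries. None of these 4 passed with the GC and length trends removed, with edgeR adjusted p-values of 0.142 for Mrpl50, 0.121 for Mrpl33, 0.0563 for Oxa1l and 0.0544 for Esrra.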

How the data were processed

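RNA-seq was measured in 6 left ventricle libraries. Per the submitters' processing notes, cutadapt 1.9, HISAT2 2.0.4, StringTie 1.3.4d and build GRCm38 were used. How the counts were made, the annotation release, filters and the strand setting were not given in the sources used here. A table from the authors, deposited for the whole series, holds per the file headers FPKM values and estimated counts for each library.

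Estimated counts were tested with edgeR 4.0.16 (R 4.3.3; TMM scaling, quasi-likelihood test, Benjamini-Hochberg over genes of mean FPKM of at least 1), after a test on simulated data. The test gives no standard error, so each SE was taken as the absolute log2 fold change over the square root of its F statistic. Alternatives used DESeq2 1.42.0 and limma 3.58.1. GC content, length and copies (blastn 2.17.0) came from GENCODE M21. GC and length trends were lowess fits per library (span 0.3), entered as offsets. FPKM, shares and ratios were compared by exact permutation.

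Named genes were every mt- gene, every nuclear copy and up to 4 called genes of each list or, with none called, its 2 most abundant. Polrmt and Tfam were added after their values were seen. Members and lists were chosen with earlier results of these data known. Replicate numbers came from titles and did not pair libraries (correlations of same-numbered deviations -0.10, 0.14 and -0.06).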

Additional observations from a re-analysis of the deposited data

How the results depend on the processing

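Before alternatives, 3 mRNAs, 4 tRNAs and 0 rRNAs were called higher, 0 genes lower, with an mRNA median of 0.93. Among the 200 nuclear genes 8 rose and 2 fell. Library totals gave 0 mRNAs and 0 nuclear genes higher. limma, with either pseudocount, gave 0 mRNAs, 4 nuclear genes higher and 6 lower. No filter gave 0 mRNAs and 0 nuclear genes either way, and a mean FPKM of at least 5 gave 4 nuclear genes higher and 0 lower. DESeq2 gave 12 mRNAs, 9 tRNAs, 18 nuclear genes higher and 7 lower. TMM without mitochondrial genes gave 1 nuclear gene lower. Library totals and limma moved the median of all genes by -0.13 and by -0.12 to -0.15. With GC and length trends removed there were 0 mRNAs and 1 tRNA higher, 2 genes lower and 2 nuclear genes higher. The mRNA median was 0.0479, and 16 of 37 log2 fold changes were above 0, against 37 before. mt-Ti (-0.97) and mt-Ta (-0.67) passed below 0. mt-Atp8 (-0.10), called higher before, lay below 0 without passing. Nuclear trends gave 0 mRNAs, 0 tRNAs, 3 genes lower, 2 nuclear genes higher and a median of 0.0053. Again 16 of 37 log2 fold changes were above 0. mt-Ta (-0.89), mt-Tn (-0.89) and mt-Tc (-0.74) passed below 0, and mt-Atp8 (-0.28) lay below 0 without passing. Chosen after seeing the data, GC removed alone gave 0 mRNAs, 0 tRNAs, 0 nuclear genes either way and a median of 0.11, and length alone 13 nuclear genes higher and 7 lower. The causes were not tested. A replicate block gave 0 mRNAs, 4 tRNAs and 0 nuclear genes either way, and 183 calls over all tested genes against 615 without it, but the numbers do not pair the libraries. Leaving out 1 library gave 0 to 12 mRNAs, 0 to 17 tRNAs, 0 to 26 nuclear genes higher, 0 to 7 lower, and 6 to 12 shares above and 3 to 11 below. The share counts could not fall below 6 and 3, because shares apart in all libraries stay apart in fewer. Among the mRNAs alone, 0 shares were above and 0 below. With 3 libraries a group, calls near the threshold rest on single libraries.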
